A study of Homo sapiens with 6 samples.

Results

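The genes described here build the actin cytoskeleton and the plaque that ties it to integrins at focal adhesions. They are 38 symbols from a list written with earlier results of these data known, integrins left out, and all 38 had 1 row each among the 27234 rows of the count table. RNA was measured in A673, a human Ewing sarcoma line with an EWS-FLI1 fusion gene, taken 48 h after transfection with siRNA against FLI1 (siFLI1, 3 libraries) or with a scrambled siRNA (siControl, 3 libraries). Both groups carry the fusion and were kept in DME with serum (FBS), and a single line stands for the tumour. According to its title the study is about ETS factors that bind the receptor for glucocorticoids, and the design has 1 comparison, siFLI1 against siControl.

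Actin monomers assemble into filaments whose turnover is set by profilin, cofilin and cyclase-associated protein. Tropomyosins, caldesmon, calponins and transgelins lie along the filament and control how myosin II pulls on it, while alpha-actinins and filamins crosslink it. At focal adhesions talin, vinculin, kindlin and the complex of ILK, PINCH and parvin join the filament to integrins, and LIM proteins such as zyxin and LPP gather there under tension. In mesenchymal and smooth muscle cells many of these genes are controlled by serum response factor (SRF), which binds the CArG box, and by its actin-sensing MRTF cofactors. EWS-FLI1 is known to repress parts of the mesenchymal programme in Ewing sarcoma cells.

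The proximal promoters of the genes are shown first for the SRF motif. RefSeq windows (GRCh38.p14) of the 250 bases before a start site were found for 34 of the 38 genes, 62 windows in all, and for none of ACTB, TAGLN, MYL9 and PARVA. The CArG box (2 C, 6 A or T, 2 G, which reads alike on both strands) occurred in 8 of the 62 windows (12.9%) and in 1.16% of 35116 windows of all genes. These 8 belonged to ACTG1, ACTG2, ACTN1, CNN2, FLNA, LPP, TES and TPM4. None of these genes was called between siFLI1 and siControl in edgeR. Their log2 fold changes ran from 0.02 (TES) to 1.62 (LPP), and ACTG2 was not tested. Among the 4 genes called higher, the windows of ACTA2, CALD1 and TPM1 held no CArG box, and TAGLN had no window. A link of the motif to the changes was not tested. With 1 G or C allowed in the core, a variant added after the windows were seen, 15 of the 62 windows (24.2%) and 7.04% of all windows held a match. This added ACTA2, ACTN4, CALD1, CAP1 and ZYX to the genes with a match, while the single TPM1 window had none in either form. The ETS core GGAA, on either strand, was in 95.2% of these windows and in 92.7% of all windows. The tandem GGAAGGAA was in 3.23% against 3.06%. The TEAD motif GGAATG, which contains GGAA, was in 22.6% against 11.9%. A match describes letters in a window and is not a measured site.

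The 3′ counts do not tell which start site was in use: the ACTA2 window shown next belongs to a start 38624 bases inside the counted row, and the CALD1 window to one 67914 bases upstream of it. Counted over whole windows, 1 of 2 ACTA2 windows and 1 of 4 CALD1 windows held a match with 1 G or C allowed and 0 held the CArG box itself, which 1 of 7 LPP windows and the single ACTG2 window had. Shown next are the stretches of 4 windows up to the first annotated exon base, 5′ to 3′ on the gene's strand, with matches in capitals. ACTA2 and CALD1 were called higher, LPP had a large fold change that missed the threshold, and ACTG2, a close relative of ACTA2, was near silent. The ACTA2 matches began at −121 and −71 from the start site at 88952773, each with 1 C or G in the core. The CALD1 match began at −26, the ACTG2 match at −110 and the LPP match at −183 from their start sites. The ACTA2 stretch is chr10:88952774-88953023 (minus strand), CALD1 is chr7:134711249-134711498, ACTG2 is chr2:73892758-73892943 and LPP is chr3:188212462-188212640 (plus strand).
ACTA2: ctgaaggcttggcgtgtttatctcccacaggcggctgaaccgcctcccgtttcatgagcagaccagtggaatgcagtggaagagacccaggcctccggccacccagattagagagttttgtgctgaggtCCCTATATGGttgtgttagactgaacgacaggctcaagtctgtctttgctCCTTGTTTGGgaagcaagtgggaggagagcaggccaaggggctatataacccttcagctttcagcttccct
CALD1: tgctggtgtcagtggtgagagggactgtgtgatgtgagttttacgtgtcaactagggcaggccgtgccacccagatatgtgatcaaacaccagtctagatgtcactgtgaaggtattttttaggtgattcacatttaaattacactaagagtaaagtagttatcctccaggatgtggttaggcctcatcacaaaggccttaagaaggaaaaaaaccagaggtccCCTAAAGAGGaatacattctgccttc
ACTG2: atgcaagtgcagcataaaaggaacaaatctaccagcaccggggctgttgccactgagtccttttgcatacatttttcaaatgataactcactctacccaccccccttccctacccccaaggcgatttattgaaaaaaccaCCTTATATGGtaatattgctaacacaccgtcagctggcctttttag
LPP: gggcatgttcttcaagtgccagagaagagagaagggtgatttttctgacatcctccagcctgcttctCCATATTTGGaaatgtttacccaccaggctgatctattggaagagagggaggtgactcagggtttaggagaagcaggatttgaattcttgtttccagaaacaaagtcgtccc

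Counts in genes ran from 1248395 to 1893606 in 5 libraries and came to 417145 in siFLI1 replicate 3, or 10.1% of the total that its column header gives (the others had 41.2% to 61.0%). That library stood apart on the first principal component and siControl replicate 1 on the third. The FLI1 row was at 19.0, 42.5 and 24.1 CPM (counts per 1e+06 counts) in siFLI1 and 63.0, 69.1 and 62.4 CPM in siControl. Its 3′ counts do not tell RNA of FLI1 from RNA of the EWS-FLI1 fusion. The FLI1 groups were apart, and the log2 fold change of −1.16 did not pass over all genes (edgeR adjusted p = 0.17). All 8 Ewing sarcoma markers listed were detected and tested, and NR0B1 and PRKCB were called lower in siFLI1. The summed level of the 8 was 1159 to 1924 CPM in siFLI1 and 2693 to 3901 CPM in siControl. CCND1 and STEAP1 had the highest mean CPM of them and did not pass (edgeR adjusted p = 0.275 and 0.184). CCND1 was at 1256, 1033 and 394 CPM in siFLI1 and 1220, 2160 and 2744 CPM in siControl, so its groups overlapped. CPM here are TMM-scaled (trimmed mean of M values), and libraries are named in replicate order.

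In cells with siRNA against FLI1, 4 actin and thin filament genes rose, smooth muscle actin ACTA2, tropomyosin TPM1, transgelin TAGLN and caldesmon CALD1. The other tested genes of the list stayed short of the threshold, as did most of all tested genes. Of the 38 genes, 33 had counts high enough to test, and 4 of these (12.1%) were higher at an adjusted p under 0.05 in edgeR's quasi-likelihood test, against 1.34% of all 9420 tested genes. None was lower, against 0.117% of all tested genes, and DESeq2 and limma-voom also called 0 lower. At an unadjusted p under 0.05, 10 of 33 (30.3%) were higher and 1 lower, against 6.62% and 4.13% of all. For the same 10 genes every siFLI1 library was above every siControl library (30.3%, against 8.93% of all tested genes). For 0 of 33 was every siFLI1 library below, against 7.71% of all. Fold changes were positive for 28 of 33 (84.8%), against 50.4% of all. Their median log2 fold change was 0.39, against 0.01 over all tested genes. The median of their log2 levels relative to the siControl mean was 0.62, 0.39 and 0.14 in the siFLI1 libraries and 0.04, −0.10 and −0.08 in the siControl libraries. In bulk RNA, a change in the share of cells that express a gene and a change in its RNA per cell cannot be told apart.

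**Figure D1:**
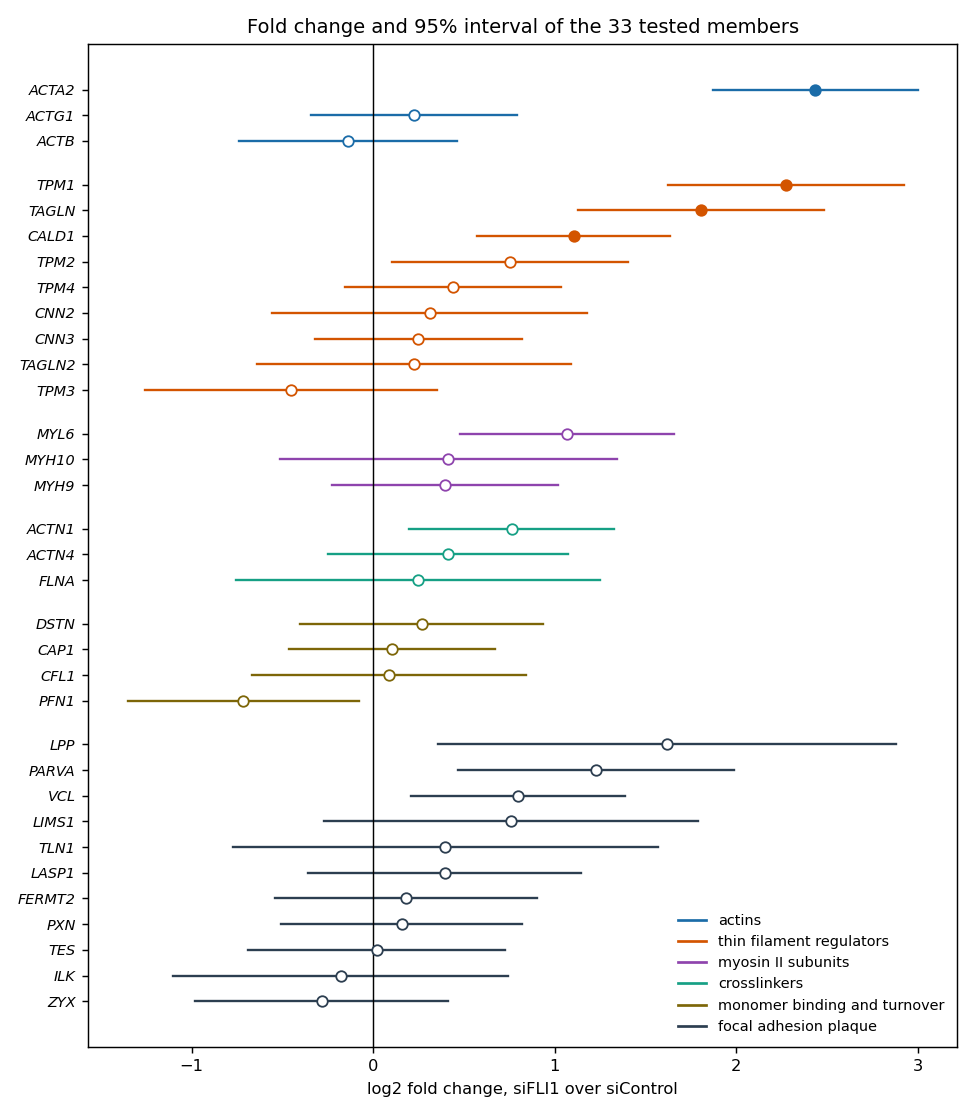
Log2 fold change of siFLI1 over siControl (points) with its 95% interval (lines) for the 33 tested genes, coloured by role. Filled points passed an adjusted p of 0.05, and the 4 that did, ACTA2, TPM1, TAGLN and CALD1, are an actin and 3 thin filament regulators.

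Among the actins only the smooth muscle isoform ACTA2 passed. ACTA2 (row NM_001141945, hg38 chromosome 10 from 88935074 to 88991397 on the minus strand) had 176, 192 and 177 CPM in siFLI1 and 34.5, 31.0 and 35.0 CPM in siControl, from 669 and 158 counts. The lowest siFLI1 library was thus far above the highest siControl library, and replicates lay close together. The means of 181 ± 9.17 and 33.5 ± 2.16 CPM (SD, n = 3) gave a log2 fold change of 2.44 ± 0.26 (SE), a 5.41-fold rise (edgeR adjusted p = 0.000108, rank 19 of all tested genes). The row overlaps FAS at its 5′ end and ACTA2-AS1 at its 3′ end, both on the other strand, with 707 and 18 counts over the 6 libraries. ACTG1, the gamma cytoplasmic actin of nearly all cells, was at 775, 886 and 720 CPM in siFLI1 and 802, 632 and 603 CPM in siControl, so the groups overlapped. The log2 fold change was 0.23 (95% interval −0.34 to 0.79). ACTB, the beta cytoplasmic actin often used as a reference gene, was at 59.1 ± 10.1 against 65.8 ± 3.10 CPM, with a log2 fold change of −0.14 (95% interval −0.74 to 0.46). Its mean over all libraries was 62.5 CPM, against 737 CPM for ACTG1, and whether the row undercounts ACTB was not tested. The enteric smooth muscle actin ACTG2 had 6 counts in siFLI1 and 1 in siControl and was not tested. The ratio of pooled counts was 7.75 (exact 95% interval 0.94 to 356, counting error only).

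Thin filament regulators gave the other 3 calls. Their summed level over 10 genes was 986, 1002 and 1052 CPM in siFLI1 and 686, 594 and 514 CPM in siControl. TPM1 (chromosome 15, 63048319 to 63071914), the alpha tropomyosin gene, was at 105, 127 and 131 CPM in siFLI1 and 20.5, 22.3 and 32.5 CPM in siControl, with a wide gap between the groups. TPM1 rose 4.84-fold, a log2 fold change of 2.27 with an SE of 0.30 (edgeR adjusted p = 0.000758). TAGLN (chromosome 11, 117199324 to 117204792), an actin-binding protein of contractile cells, was at 171, 103 and 91.0 CPM in siFLI1 and 36.1, 29.3 and 41.0 CPM in siControl. The groups did not overlap, and siFLI1 replicate 1 was well above the other 2. TAGLN rose by a log2 fold change of 1.81 ± 0.32, 3.50-fold (adjusted p = 0.00735 in edgeR). CALD1 (chromosome 7, 134779413 to 134970729), caldesmon, which binds actin, tropomyosin and myosin, was at 243, 215 and 273 CPM in siFLI1 and 129, 112 and 97.4 CPM in siControl. CALD1 rose 2.15-fold, a log2 fold change of 1.10 with an SE of 0.25 (edgeR adjusted p = 0.0396).

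These calls differed in how they stood up to leaving out a library. ACTA2 and TPM1 passed in each of the 6 fits without 1 library, with highest adjusted p of 0.00322 and 0.016. TAGLN lost its call without siFLI1 replicate 1 (log2 fold change 1.46, edgeR adjusted p = 0.0804) and without siControl replicate 2 (1.68, adjusted p = 0.0832). CALD1 kept its call only without siControl replicate 1 among these 6 fits, and its adjusted p reached 0.232 without siControl replicate 3, with log2 fold changes from 1.01 to 1.19. The 4 genes thus became 2 without siFLI1 replicate 1 or without siControl replicate 2. Scaling by total counts, which moved the median of all genes to −0.12, also ended the call of CALD1 (0.96, adjusted p = 0.141). Without siFLI1 replicate 3 and siControl replicate 1, the libraries that stood apart, these 4 and vinculin were called.

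Relatives of the called thin filament genes had smaller differences. TPM2, the beta tropomyosin, was at 61.5, 75.1 and 66.9 CPM in siFLI1 and 35.0, 50.4 and 35.0 CPM in siControl. The groups did not overlap, and the log2 fold change of 0.75 ± 0.30 did not pass (edgeR adjusted p = 0.377). TPM4, a tropomyosin of non-muscle cells, was at 0.44 and TPM3, another, at −0.45 on the log2 fold change scale, and neither passed. CNN3, the acidic calponin, was at 166, 238 and 233 CPM in siFLI1 and 189, 208 and 136 CPM in siControl, with overlapping groups and a log2 fold change of 0.25 (95% interval −0.32 to 0.82). CNN2, the calponin of non-muscle cells, was at 0.31 and TAGLN2, the broadly expressed transgelin, at 0.22. The smooth muscle calponin CNN1 had 6 counts in siFLI1 and 4 in siControl and was not tested. Parts of the 3′ ends of TPM4 and TAGLN2 also occur in other genes: of 50-base stretches in the last 500 bases of the transcript, 26.4% of TPM4 and 27.7% of TAGLN2 were found there, so their reads could be shared. For ACTA2, TAGLN and CALD1 this share was 0, and TPM1 was not matched to a transcript.

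**Figure D2:**
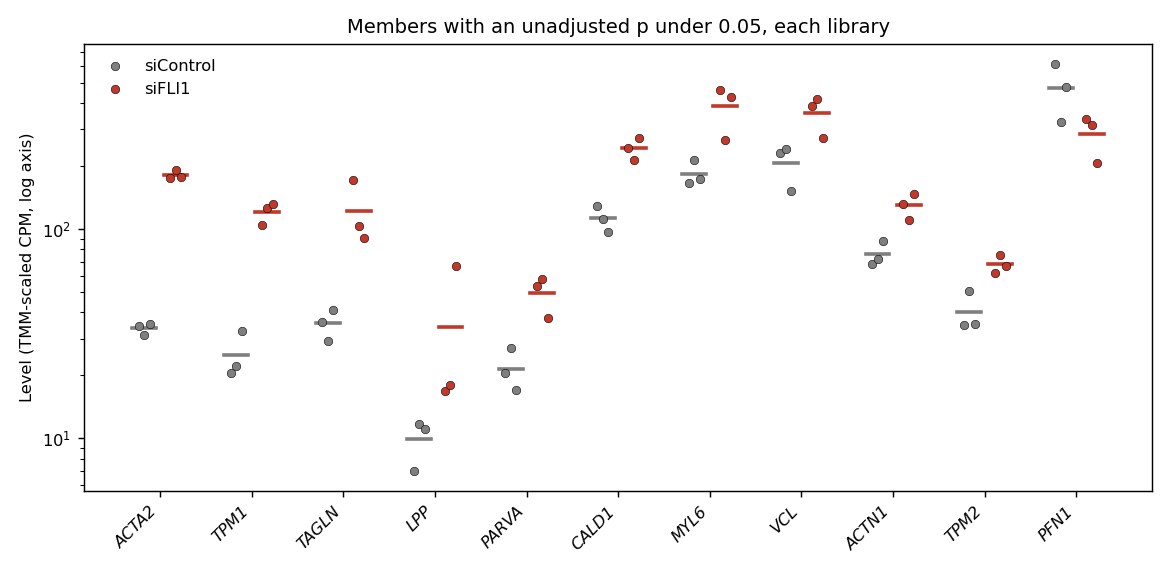
Level in each library (points, TMM-scaled CPM on a log axis) and group mean (bars) of the 11 genes with an unadjusted p under 0.05, siControl in grey and siFLI1 in red. The groups are apart for the 10 higher genes and overlap for PFN1, and siFLI1 replicate 3 is the single high LPP point at 66.9 CPM.

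The shift within gene families was also read from ratios inside a library, which do not depend on scaling. Those with ACTA2, TPM1 or TAGLN reuse the counts of genes already called and are not separate evidence. Counts of 15 pairs of related genes were compared as log2 ratios, with 1 count added to each. The ratio of ACTA2 to ACTB was 1.64, 1.44 and 1.74 in siFLI1 and −0.98, −1.09 and −0.82 in siControl. Counts on the ACTA2 row were thus above those on the low ACTB row in siFLI1 and below them in siControl. The ratio differed by 2.57 on the log2 scale. Against ACTG1 the difference was 2.19. The ratio of TPM1 to TPM3 was 2.03, 1.70 and 2.32 in siFLI1 and −1.43, −0.62 and 0.04 in siControl, a difference of 2.69. TPM1 also gained on TPM2 by 1.49 and on TPM4 by 1.80, and TAGLN on TAGLN2 by 1.47. The groups did not overlap for any of these 6 ratios, and each gave p = 0.1 in a two-sided exact permutation test. That is the smallest value 3 against 3 libraries allow, and it came to 0.214 adjusted over the 15 pairs. The ratio of ACTB to ACTG1 also had no overlap, at −3.73 in siFLI1 and −3.34 in siControl as means (exact permutation p = 0.1). The other 8 pairs overlapped. ACTN1 to ACTN4 differed by 0.27, MYH9 to MYH10 by 0.12 and CNN2 to CNN3 by −0.03, each less than the spread between libraries.

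**Figure D3:**
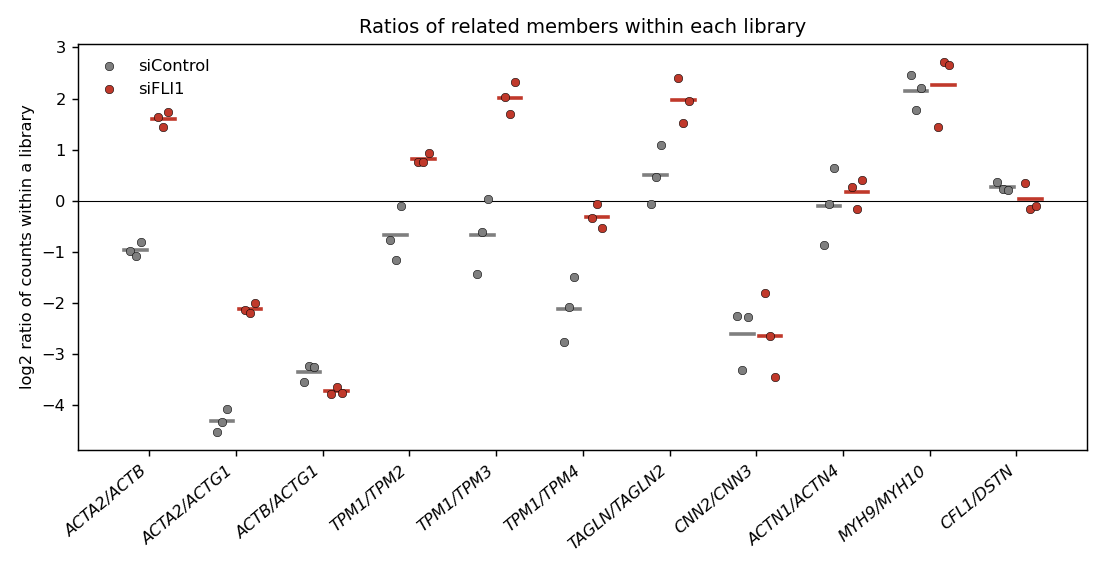
Log2 ratio of the counts of related genes within each library (points, 1 count added) and group mean (bars), siControl in grey and siFLI1 in red, for the 11 pairs without a near-silent gene. Ratios of ACTA2, TPM1 and TAGLN over their relatives are higher in siFLI1, by 1.47 to 2.69, and ratios such as MYH9 to MYH10 overlap.

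The 3 tested myosin II subunits had positive fold changes and no call, although MYH10 was at −0.10 without siFLI1 replicate 1. Of all tested genes 50.4% had positive fold changes and 1.34% were called higher, so these counts do not set so few genes apart. MYL6, the essential light chain of non-muscle and smooth muscle myosin, was at 465, 268 and 428 CPM in siFLI1 and 165, 214 and 173.5 CPM in siControl. The groups did not overlap, with siFLI1 replicate 2 nearest to siControl. The MYL6 log2 fold change of 1.07 ± 0.27 (SE, 95% interval 0.48 to 1.66) missed the threshold in edgeR (adjusted p = 0.0824) and passed in DESeq2 (adjusted p = 0.0331). DESeq2 was the only 1 of the 16 alternatives to call it. It was called in 0 of the 6 fits without 1 library, with an edgeR adjusted p of up to 0.334. The non-muscle heavy chains MYH9 and MYH10 were at 0.40 and 0.41, with 95% intervals of −0.23 to 1.02 and −0.52 to 1.34. The regulatory light chain MYL9, typical of smooth muscle, had 2, 5 and 1 counts in siFLI1 and 0 in siControl. With siControl set to a floor of 3 counts over its libraries, MYL9 was at least 3.44-fold higher, a value that leaves out the counting error of its 8 counts.

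Of the 3 tested crosslinkers and 4 tested turnover factors, 0 passed in edgeR, limma-voom or DESeq2. In edgeR 1.34% of all tested genes were higher and 0.117% lower, so 0 calls in so few genes does not set them apart. At an unadjusted p under 0.05 ACTN1 was higher and PFN1 lower, against 6.62% and 4.13% of all tested genes. ACTN1, the alpha-actinin of stress fibres and adhesions, was at 132, 111 and 147 CPM in siFLI1 and 68.4, 72.0 and 88.0 CPM in siControl, with no overlap. For ACTN1 the log2 fold change of 0.76 ± 0.26 (SE) did not pass (edgeR adjusted p = 0.251). ACTN4, a further alpha-actinin, was at 0.41 and the filamin FLNA at 0.25. The muscle filamin FLNC had 3 counts in siFLI1 and 2 in siControl. PFN1, profilin, which loads actin monomers for assembly, was at 337, 316 and 206 CPM in siFLI1 and 614, 327 and 480 CPM in siControl. The groups overlapped, and the log2 fold change was −0.71 ± 0.30 (edgeR adjusted p = 0.398). Of its 3′ stretches 24.4% also occur in PFN1P1. CFL1, cofilin, which severs filaments, was at 1359, 777 and 487 CPM in siFLI1 and 804, 670 and 1003 CPM in siControl. Its libraries spread more within siFLI1 than the groups differed, with a log2 fold change of 0.09 (95% interval −0.67 to 0.84). DSTN, a relative of cofilin, was at 0.27 and CAP1, cyclase-associated protein, at 0.10.

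In the focal adhesion plaque, 3 of 11 tested genes (27.3%, against 6.62% of all tested genes) were higher at an unadjusted p under 0.05. After adjustment 0 passed in edgeR (against 1.34% higher and 0.117% lower of all tested genes), DESeq2 or limma-voom. The summed level of the 12 plaque genes was 926, 969 and 865 CPM in siFLI1 and 668, 701 and 603 CPM in siControl. VCL alone gave means of 361 and 208 CPM within mean sums of 920 and 657 CPM, so the sum mostly follows 1 gene. Fold changes were positive for 9 of the tested plaque genes and negative for 2, ILK and ZYX. VCL, vinculin, which reinforces the link of talin to actin, was at 387, 421 and 273 CPM in siFLI1 and 230, 242 and 152 CPM in siControl. The lowest siFLI1 library, replicate 3, was only just above the highest siControl library. The VCL difference of 0.80 ± 0.28 (log2, SE) did not pass in edgeR (adjusted p = 0.251). Without siFLI1 replicate 3 and siControl replicate 1 it passed, at 1.02 (adjusted p = 0.0458 in edgeR). PARVA, alpha-parvin, which binds ILK and actin, was at 53.7, 57.8 and 37.5 CPM in siFLI1 and 20.5, 26.9 and 17.1 CPM in siControl. The groups did not overlap, and the log2 fold change was 1.23 ± 0.36 (adjusted p = 0.135 in edgeR). LPP, a LIM protein of adhesions, was at 16.8, 17.9 and 66.9 CPM in siFLI1 and 7.00, 11.7 and 11.1 CPM in siControl. All 3 siFLI1 libraries were higher, replicate 3 by far, and the log2 fold change of 1.62 ± 0.59 was 0.81 without siFLI1 replicate 3, the library with the fewest counts.

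The other members of the complex with PARVA also missed the threshold, and differences between them and PARVA were not tested. ILK, the pseudokinase at its centre, was at −0.18 (95% interval −1.10 to 0.74). LIMS1, which encodes PINCH1, was at 67.1, 112 and 174 CPM in siFLI1 and 25.3, 118 and 58.1 CPM in siControl, a spread within each group as large as the difference between them. The log2 fold change was 0.76, and −0.0034 without the 2 libraries that stood apart. FERMT2, kindlin-2, which activates integrins, was at 0.18 and TLN1, talin, at 0.40. The adaptor paxillin, PXN, was at 0.16, the LIM proteins LASP1, TES and ZYX at 0.39, 0.02 and −0.28, and none passed. PDLIM7 had 10 counts in siFLI1 and 12 in siControl and was not tested.

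Markers of other cell types were read beside the contractile calls. Of 9 smooth muscle markers, 0 had enough counts to be tested, MYH11, LMOD1 and KCNMB1 were at 0 in all 6 libraries, and the 9 together had 34 counts. Their summed level was 0.664 to 24.1 CPM in siFLI1 and 0.855 to 3.77 CPM in siControl, with the highest value in siFLI1 replicate 3. SYNPO2 and ACTG2 were the highest of them, and ACTG2 and CNN1 are also among the 38 genes. The 10 skeletal muscle markers had 73 counts, with MYOD1, MYOG, MYF5 and CKM at 0 and summed levels of 10.6 to 29.5 CPM in siFLI1 and 4.69 to 5.13 CPM in siControl. TNNT1 and MYH3 were the highest of these. MYH3, an embryonic myosin heavy chain, had 13, 9 and 2 counts in siFLI1 and 0 in each siControl library, while TNNT1 had 14 counts in siFLI1 and 19 in siControl. Of 8 fibroblast markers, 5 were tested and 3, COL1A1, COL1A2 and COL3A1, were called higher, against 1.34% of all tested genes. The 8 summed to 2070 to 2258 CPM in siFLI1 and 535 to 602 CPM in siControl. These 3 collagens made up most of the sums, so the sums repeat their calls. PDGFRB and FAP, also tested, had log2 fold changes of 1.68 and 2.09 without overlap and did not pass (edgeR adjusted p = 0.117 and 0.299). DCN and LUM, both typical of fibroblasts, had at most 5.36 CPM in any library. PDGFRA had 3 counts in siFLI1 and 26 in siControl, 25 of them in siControl replicate 1, and was not tested. The part of these genes in the calls was not tested. Endothelial markers, led by CLDN5 and KDR, summed to 8.03 to 14.6 CPM in siFLI1 and 6.44 to 22.1 CPM in siControl. Leukocyte markers, led by PTPRC and LYZ, reached 42.8 CPM in siFLI1 replicate 3 and at most 5.13 CPM elsewhere.

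Other genes of the pathway were read from 3 lists that hold none of the 38. Of 39 tested genes of filament nucleation, capping and bundling, 0 passed in edgeR, 2 (5.13%) were higher and 0 lower at an unadjusted p under 0.05, against 6.62% and 4.13% of all tested genes, and the median log2 fold change was 0.02. TMSB4X, thymosin beta-4, which sequesters actin monomers, was at 1271, 1472 and 2123 CPM in siFLI1 and 602, 792 and 708 CPM in siControl, with no overlap. The TMSB4X log2 fold change of 1.21 ± 0.30 missed the threshold in edgeR (adjusted p = 0.0697) and passed in DESeq2 (0.00358) and limma-voom (0.0353). TMOD3, a filament end-capping protein, was at 0.77 ± 0.32.

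Of 26 tested genes of adhesion signalling and adaptors, KANK2 was higher and 0 were lower. The median was 0.27, and an unadjusted p under 0.05 was reached by 4 (15.4%, against 6.62% of all) in the higher and 1 (3.85%, against 4.13%) in the lower direction. KANK2, which binds talin, was at 135, 161 and 120 CPM in siFLI1 and 72.7, 46.9 and 58.1 CPM in siControl, without overlap. It rose by 1.24 ± 0.28 on the log2 scale (edgeR adjusted p = 0.0396), a call kept in 2 of the 6 fits without 1 library, those without siFLI1 replicate 3 and without siControl replicate 1, with an adjusted p of up to 0.244 without siFLI1 replicate 2. It was also lost under total counts (0.152), upper quartile scaling (0.0506) and a replicate block (0.101). Of 11 tested smooth muscle and LIM genes, FHL2 was higher and 0 were lower. Their median was 0.68, and 4 (36.4%, against 6.62% of all) were higher and 1 (9.09%, against 4.13%) lower by unadjusted p under 0.05. FHL2, a LIM cofactor of transcription and of adhesions, was at 21.8, 29.2 and 61.6 CPM in siFLI1 and 4.85, 7.61 and 9.40 CPM in siControl, without overlap. The FHL2 log2 fold change of 2.29 ± 0.53 (edgeR adjusted p = 0.0487) lost its call in each of the 6 fits without 1 library, with adjusted p from 0.0582 to 0.19, and under the 3 other scalings, the filter of 5 CPM and limma-voom. DESeq2 called it (0.00358).

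**Figure D4:**
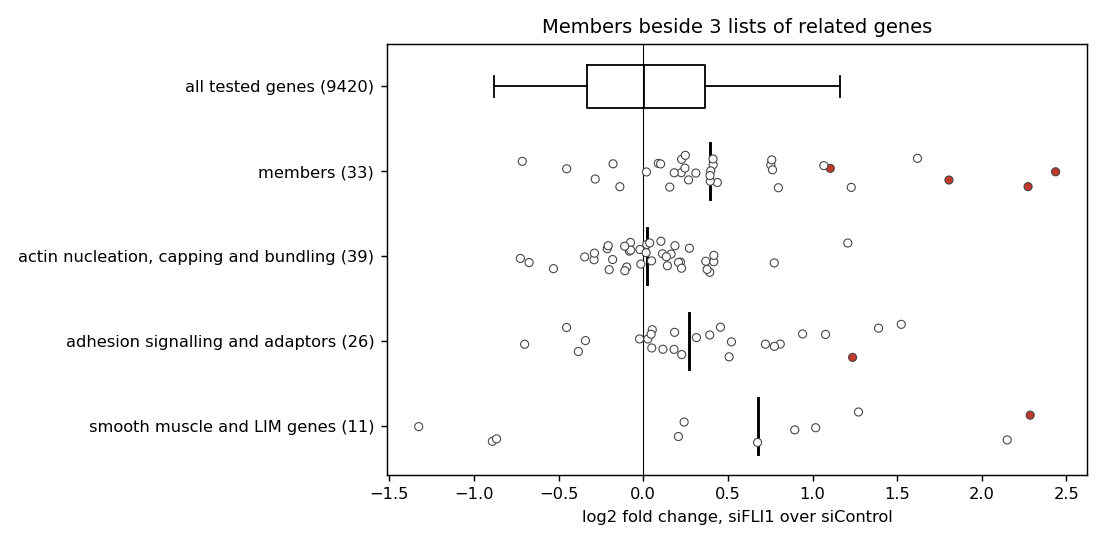
Log2 fold change of siFLI1 over siControl for the tested actin and adhesion genes (members) and 3 lists of related genes (points, number tested in brackets, vertical bars for medians, filled where adjusted p was under 0.05), with all tested genes as a box (quartiles, with whiskers at the 5th and 95th percentiles). Medians are 0.39 for the 33 members and 0.01 for all tested genes, and the heights of points are random.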

How the data were processed

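RNA-seq was made from A673 cells, 3 siFLI1 and 3 siControl libraries, with a bulk form of MARS-seq that reads 3′ ends, per the labels' protocols. The authors deposited raw counts per gene over exons. The submitters' processing notes list bcl2fastq, HISAT 0.1.5, HOMER and hg38. Reads carried molecular barcodes, per the labels' protocols. Their collapse and the use of strand in counting are not given in the sources used here: PCR copies may remain, and overlapping genes may share reads. Transfections were in triplicate per the labels, which name no separate cultures or days, so p-values cover only the spread among these libraries, possibly technical. Within groups, all pairs of libraries differed beyond sampling noise (chi-square at least 6.78 per degree of freedom).

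The genes, lists and rules were chosen with earlier results of these data known. Genes were kept by edgeR's filterByExpr (minimum count 10, minimum total 15; 9420 of 27234 rows) and scaled by TMM. Groups were compared in R 4.3.3 with edgeR 4.0.16 (robust glmQLFit, glmQLFTest, two-sided), with p-values adjusted by Benjamini-Hochberg across the tested genes and a threshold of 0.05. Standard errors and 95% intervals came from the quasi-likelihood F statistic. The script was tested on simulated counts. Values per library are printed for genes with an unadjusted p under 0.05 and for the highest CPM of each role. Of each related list the genes that passed, or else the 2 with the smallest p, are named, and of marker lists the 2 highest. LIMS1, NR0B1, PRKCB and further markers were named after their values were seen. Alternatives were DESeq2 size factors, total counts and upper quartile scaling in edgeR, limma-voom (limma 3.58.1), DESeq2 1.42.0, a minimum of 5 CPM in 3 libraries, no filter, a replicate block, leaving out each library and a threshold of 0.01. Leaving out siFLI1 replicate 3 together with siControl replicate 1 was added after seeing the data. Stretches of 50 bases from transcript ends were looked up in GENCODE 29 transcripts of other genes, for 35 of 38 genes. Another list of related genes is not reported here.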

Additional observations from a re-analysis of the deposited data

How the results depend on the processing

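ACTA2 and TPM1 were called higher under each of the 16 alternatives run, with log2 fold changes from 2.31 to 2.47 and from 2.09 to 2.49. No actin or adhesion gene was called lower under any of them. Lower calls were rare among all tested genes too (0.117% in the main fit). The 4 calls became 3 under total counts and at a threshold of 0.01 (CALD1 lost in each) and 5 in DESeq2 (with MYL6) and without siFLI1 replicate 3 and siControl replicate 1 (with VCL). Over the fits without 1 library they ran from 2 to 4, and the median log2 fold change of the tested genes from 0.24 to 0.45. Over all alternatives that median ran from 0.23 to 0.45, except 0.59 without siFLI1 replicate 3 and siControl replicate 1. Over all tested genes, 126 were higher and 11 lower. These counts were 306 and 62 with no filter, which moved the median of all genes to 0.12, and 71 and 1 at a threshold of 0.01. Lower genes numbered 17 under total counts, 34 in DESeq2 and 32 (with 161 higher) without siFLI1 replicate 3 and siControl replicate 1. Without 1 library, 64 to 121 were higher and 1 to 7 lower. Where fewer libraries entered a fit, fewer were available to estimate the spread, and for other changes the cause was not tested. No shared deviation of same-numbered libraries was seen (correlations −0.0255, −0.0122 and −0.0472). Differently numbered libraries had −0.0909 to 0.12. With so few libraries, this cannot show whether those of 1 number were handled together. With the replicate block, 3 of the genes were called (CALD1 lost, edgeR adjusted p = 0.115), and 99 genes were higher and 2 lower in all. The ratio of MYL9 to MYL6 fell from a difference of 1.31 to 0.17 with 5 counts added. Depth limits ACTG2, CNN1, MYL9, FLNC and PDLIM7, which had 5 to 22 counts over the 6 libraries.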
